A study of Mus musculus and Homo sapiens with 16 samples.

Results

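The regions described here are the active promoters of embryonic mouse skin epithelium that carry no KLF5 peak at E17.5. A region was counted where an H3K27ac peak overlapped an ATAC peak by at least 1 base, overlapped no KLF5 peak, and had its summit within 1 kb of an annotated gene start. Of 18120 H3K27ac peaks on chromosomes 1 to 19, X and Y, 5715 met the rule. They made up 71.3% of the 8012 active promoters, the other 2297 of which overlapped a KLF5 peak. Starts of 6521 genes lay within 1 kb of these 5715 summits, and 182 of those genes also had a start near an active promoter with KLF5. The regions were chosen by the called KLF5, H3K27ac and ATAC peaks and their positions, so the peak values below are a description and carry no test.

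The series concerns KLF5 in relation to sphingolipids and the barrier of the skin. Chromatin was profiled in 1 sample per assay of E17.5 skin epithelium: H3K27ac ChIP-seq and KLF5 ChIP-seq from wild type embryos, and ATAC-seq from a sample titled Het whose genotype label reads wild type. RNA was sequenced from 3 libraries labelled Klf5-/- and 3 heterozygous Klf5+/- libraries of E17.5 epidermis, all C57BL/6. For the E17.5 samples, chromatin included, dispase-treated skin gave epidermal sheets, a trypsin digest gave single cells, and cells with integrin alpha 6 but no DAPI or CD45 signal were sorted. A further RNA set, whose titles carry the letters HFD, held 2 libraries labelled Klf5-/- and 2 Klf5+/- libraries of C57BL/6 skin epithelium, with the epidermis peeled and ground in liquid nitrogen. The labels neither expand HFD nor give an age or a sort for this set, and they name no Cre driver and no deleted exon for either set. The Klf5+/- libraries thus carry 1 altered Klf5 allele and are not wild type. The labels do not say whether each library is a separate animal, so every p-value below measures only how much these libraries vary, and part of that may be technical.

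H3K27ac is an acetylated histone mark laid down at active promoters and enhancers, and ATAC-seq cuts open DNA such as the nucleosome-free stretch just before a gene start. KLF5 is a zinc-finger factor of proliferating epithelia, including the basal layer of the epidermis, and binds GC-rich GC boxes and CACCC boxes. Many promoters of housekeeping genes are CpG islands that are open and acetylated in most cell types, whereas promoters of tissue genes more often hold few CpGs and a TATA box.

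The libraries held between 31819010 and 46445546 reads on genes, and 13.4 to 16.9% of reads named no gene. All 10 keratinocyte markers of a check list had counts in every library. Klf5 itself showed no loss of RNA where the label is Klf5-/-. At E17.5 it stood at 197, 177 and 174 CPM (counts scaled to library size) in libraries labelled Klf5-/-, against 181, 199 and 163 CPM in the Klf5+/- libraries. In the HFD set the values were 101 and 119.7 CPM in the libraries labelled Klf5-/-, against 62.8 and 42.8 CPM in the Klf5+/- libraries. The E17.5 groups overlapped (log2 fold change 0.02, SE 0.10, edgeR quasi-likelihood adjusted p = 0.982), and the HFD groups did not (1.06, SE 0.23, adjusted p = 0.0533). Counts over the whole gene cannot show the loss of a part of it, so each direction below is that of libraries labelled Klf5-/- relative to Klf5+/- libraries.

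The 150 bases before the start of 5 genes are printed here, read 5′ to 3′ on the gene's strand from the RefSeq promoter table of GRCm38.p6. Dynlt1f, Frat1 and Stpg2 belong to the single-gene regions with the highest H3K27ac enrichment, and Mgst2 and Fam25c are the 2 genes called between genotypes at E17.5. Capitals mark matches on either strand to a GC box, a CACCC box, a TATA box, a CCAAT box, a CRE core or an AP-1 site, whose letters are spelled out with their shares over all promoters.
Dynlt1f, chr17:6655940-6656089, minus strand: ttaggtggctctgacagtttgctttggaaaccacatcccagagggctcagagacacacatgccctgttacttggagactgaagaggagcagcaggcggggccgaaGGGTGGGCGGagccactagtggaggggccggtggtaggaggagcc
Frat1, chr19:41829820-41829969, plus strand: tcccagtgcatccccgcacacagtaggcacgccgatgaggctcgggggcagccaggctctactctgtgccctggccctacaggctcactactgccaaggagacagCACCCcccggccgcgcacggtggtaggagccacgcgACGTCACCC
Stpg2, chr3:139205743-139205892, plus strand: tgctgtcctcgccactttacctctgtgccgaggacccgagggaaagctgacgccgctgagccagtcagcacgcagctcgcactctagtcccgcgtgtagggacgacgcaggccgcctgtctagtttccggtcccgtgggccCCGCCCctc
Mgst2, chr3:51661029-51661178, plus strand: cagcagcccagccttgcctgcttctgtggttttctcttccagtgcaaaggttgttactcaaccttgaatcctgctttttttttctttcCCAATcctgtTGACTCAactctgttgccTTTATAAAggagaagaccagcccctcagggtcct
Fam25c, chr14:34355394-34355543, minus strand: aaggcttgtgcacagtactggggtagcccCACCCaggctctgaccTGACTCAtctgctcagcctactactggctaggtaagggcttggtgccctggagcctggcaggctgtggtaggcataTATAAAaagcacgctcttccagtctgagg
The window of Dynlt1f held a GC box and a CACCC box, that of Frat1 CACCC boxes and a CRE core, and that of Stpg2 a GC box. None of these 3 windows held a TATA match. The Dynlt1f window lies outside its acetylated region, which is downstream of the start. The windows of Mgst2 and Fam25c each held a TATA match and an AP-1 match. Over the 300 bases of the table (250 before the start and 50 after it), the ratio of observed to expected CpGs was 0.408 for Dynlt1f, 0.679 for Frat1 and 0.941 for Stpg2. It was 0 for Mgst2 and 0.0877 for Fam25c. A match is a string of letters in the reference and not a measured site. The RefSeq starts of Mgst2, Stpg2 and Fam25c lie downstream of the starts used to choose the regions, and that of Frat1 lies upstream.

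Across all regions the reference promoters were CpG-rich. The table held 5919 promoters of genes at these regions, at 4602 of the 5715 regions, beside 2532 of genes at active promoters with KLF5 and 32851 in all. Median GC content was 62.0% at promoters without KLF5, 64.3% at those with KLF5 and 52.7% over the table. A CpG ratio of at least 0.6 was found at 83.0% without KLF5, 87.3% with KLF5 and 35.8% over the table. GC-rich promoters thus made up most of either active class.

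The letters of a KLF or SP site were frequent without a KLF5 peak as well. The GC box GGGCGG stood in 67.1% of promoters without KLF5, 79.4% with KLF5 and 35.7% of all. The shorter CACCC stood in 60.9% without KLF5, 66.7% with KLF5 and 57.5% of all. The CRE core TGACGT, bound by CREB and ATF factors, stood in 13.3% without KLF5, 18.4% with KLF5 and 7.51% of all.

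Some motifs of housekeeping promoters had a larger share without KLF5 than with it. The ETS motif CCGGAAG stood in 23.3% of promoters without KLF5, 19.5% with KLF5 and 8.86% of all. The NRF1 core GCATGCG, of a factor of mitochondrial genes, stood in 8.01%, 6.91% and 3.58% in that order of classes, and the YY1 motif ATGGCGG in 10.5%, 9.87% and 4.05%. TATAAA stood in 5.93% without KLF5, 4.94% with KLF5 and 13.6% of all. AP-1 sites (TGANTCA) stood in 3.599%, 4.58% and 7.81%, CCAAT in 36.6%, 43.4% and 37.4%, the E-box CACGTG in 11.0%, 11.4% and 7.15%, the TFAP2 motif GCCNNNGGC in 26.96%, 28.3% and 16.6%, and the E2F motif TTCCCGC in 9.56%, 9.68% and 4.60%. Both strands were searched for each motif, different motifs may share bases, and no share was tested.

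The acetylated regions without KLF5 were narrower and weaker than those with it. Their median H3K27ac fold enrichment at the summit, the authors' ratio over local background, was 4.26, with quartiles of 3.55 and 5.08. Promoters with KLF5 had a median of 4.98, with quartiles of 4.24 and 5.73. Median peak width was 633 bases without KLF5 and 917 bases with KLF5. The rule itself favours narrow peaks in the class without KLF5, since a wide peak has more bases that a KLF5 peak can overlap. The median −log10 q of the H3K27ac peaks was 10.7 without KLF5 and 19.4 with KLF5. Openness differed less, with a median ATAC fold enrichment of 7.74 without KLF5 and 8.20 with KLF5. The 3249 acetylated and open distal elements without KLF5 were weaker than the promoters in all 3 measures, at a median H3K27ac fold of 3.38, a width of 389 bases and an ATAC fold of 6.22.

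The share of active promoters that lacked a KLF5 peak was smaller among wide and strong H3K27ac peaks. It was 87.8% among the narrowest of 4 equal groups of H3K27ac peaks (200 to 420 bases), 74.8% and 67.4% in the middle groups, and 55.3% in the widest (1047 to 2618 bases). By H3K27ac fold enrichment such groups stood at 85.8%, 76.7%, 66.1% and 56.7%, weakest first. By ATAC fold enrichment they stood at 78.0%, 72.0%, 67.1% and 68.1%, so the order did not hold between the 2 most open groups. Even in the group of the widest peaks, 1108 of 2002 active promoters had no KLF5 peak. An overlap of 1 base was enough to leave a peak out, and a wide peak has more bases to overlap. The order by width is thus not independent of the rule, and the part of the rule in it was not tested. A weak KLF5 peak below the authors' calling threshold, a value not given in the sources used, would count as absent, and 1 library per assay gives no replicate check.

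**Figure D1:**
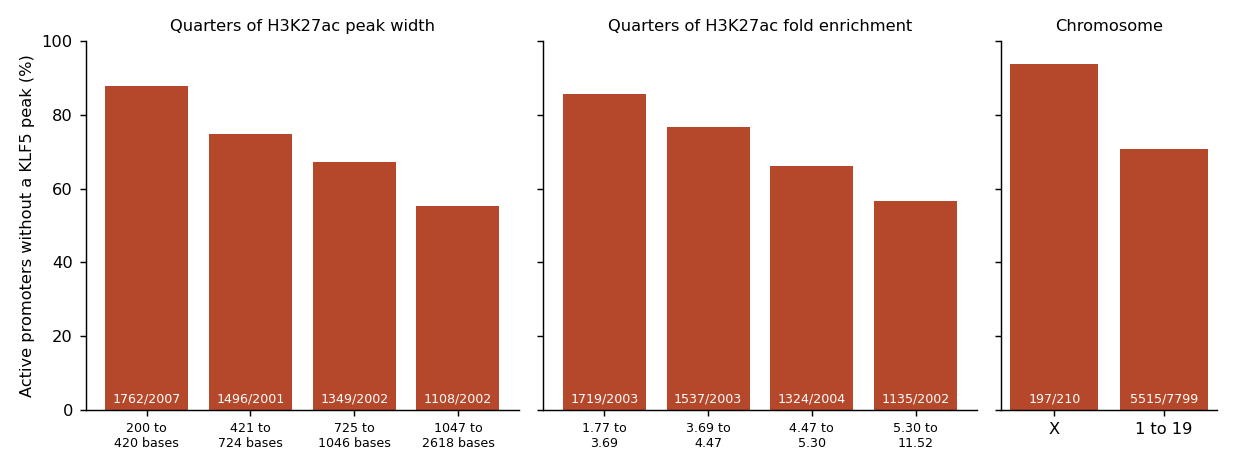
Share of active promoters without a KLF5 peak (percent) in 4 equal groups by H3K27ac peak width, in 4 by H3K27ac fold enrichment, and on chromosome X against chromosomes 1 to 19; white figures give regions without KLF5 over all active promoters of the bar. The share is 87.8% in the narrowest and 55.3% in the widest group, and 93.8% on X. A wide peak has more bases that a KLF5 peak can overlap.

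The summits of both marks lay on the gene side of the start more often where KLF5 was absent. The H3K27ac summit had a median position of +39 bases from the nearest start without KLF5 and −36 bases with KLF5, positive values being downstream. It lay downstream at 59.1% of regions without KLF5 and 40.8% with KLF5. The ATAC summit had a median position of +75 bases without KLF5 and +2 bases with KLF5, and lay downstream at 66.8% and 50.1% in that order. ATAC summits within 250 bases of the start were found at 79.4% of promoters without KLF5 and 74.3% with KLF5. For H3K27ac summits the same shares were 73.2% without KLF5 and 79.9% with KLF5. Of the 5715 regions 5615 overlapped 1 ATAC peak only, and 4505 (78.8%) had 1 gene start within 1 kb, 1145 had 2 and 65 had 3 or 4.

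**Figure D2:**
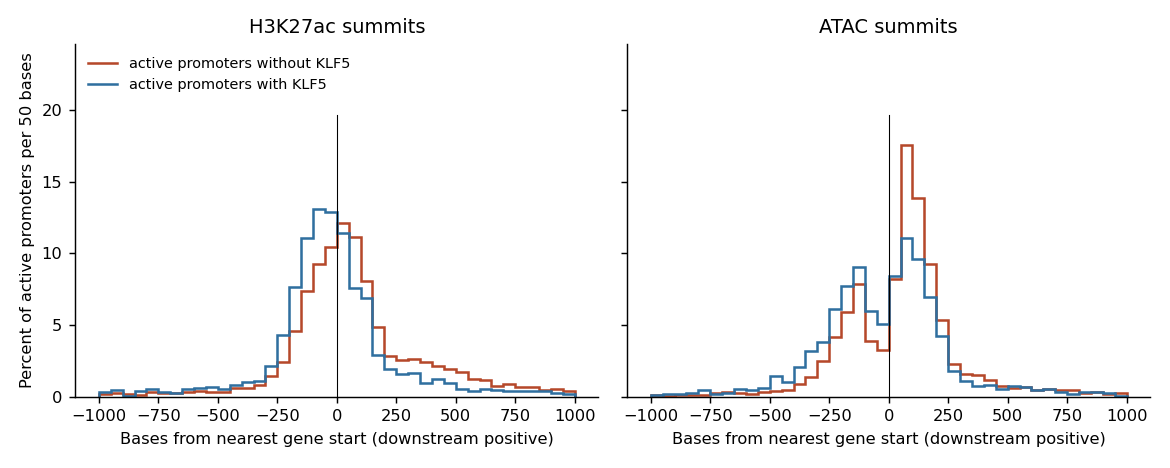
Position of H3K27ac summits (left) and ATAC summits (right) relative to the nearest gene start, in bases with downstream positive, as the percent of active promoters per 50 bases; lines stand for the 5715 promoters without KLF5 and the 2297 with KLF5. The line without KLF5 lies further downstream in both panels, with medians of +39 and +75 bases against −36 and +2 bases.

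The rule turned on 2 limits, and regions lay on either side of each. Just inside the 1 kb limit were the regions of F11r and Hnmt, at 1000 bases from the start, and Gm10129 at 997 bases. Just outside were those of Gm20518 and Sms at 1002 bases and Lpin2 at 1003 bases. Their H3K27ac folds overlapped, at 4.48, 3.38 and 2.03 inside against 2.92, 3.38 and 4.90 outside. The smallest gaps to a KLF5 peak were 16 bases at Wdr77 and Atp5f1, which share a region, 22 bases at Pja2 and 37 bases at Micu2. In all, 199 regions (3.48%) had a KLF5 peak within 1 kb without overlap, and 669 (11.7%) within 10 kb. The median distance to the nearest KLF5 peak was 69951 bases, and 2321 regions (40.6%) were more than 100 kb from one.

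Chromosome X stood apart from the autosomes. Of its 210 active promoters, 197 (93.8%) had no KLF5 peak, against 5515 of 7799 (70.7%) on chromosomes 1 to 19. Single autosomes ranged between 64.0% on chromosome 7 and 78.2% on chromosome 16. Acetylation on X was not weaker, with a median H3K27ac fold of 4.75 on X and 4.46 on the autosomes, a width of 669 bases on X and 727 on the autosomes, and an ATAC fold of 8.23 on X and 7.87 on the autosomes. X held 52 of 6433 KLF5 peaks (0.808%), but 844 ATAC peaks (2.02%) and 334 H3K27ac peaks (1.84%). Under 5 other definitions of a region the X share was between 92.4 and 95.7%, and the autosomal share between 68.2 and 78.2%. The difference is a description of 1 KLF5 sample and was not tested.

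All 3 active promoters of chromosome Y lacked KLF5. They were those of Eif2s3y, a translation initiation factor subunit, Uty, a histone demethylase relative, and Ddx3y, an RNA helicase. The peak lists held 5 H3K27ac, 27 ATAC and 2 KLF5 peaks on Y, whereas in the 6 E17.5 RNA libraries none of the 3 genes exceeded 0.0491 CPM. In those libraries Xist, the RNA that coats the inactive X, stood at 768, 1314 and 561 CPM in libraries labelled Klf5-/- and at 880.2, 521 and 700.4 CPM in Klf5+/- libraries. In the HFD set Xist reached at most 0.136 CPM. Eif2s3y stood there at 127 and 119 CPM in libraries labelled Klf5-/- and at 85.1 and 107 CPM in Klf5+/- libraries. Ddx3y stood at 133 and 136 CPM in HFD libraries labelled Klf5-/- and at 102 and 105 CPM in Klf5+/- libraries, and Uty at 27.4 and 23.3 CPM against 21.3 and 19.5 CPM. The 2 RNA sets therefore differed in sex-linked RNA as well as in preparation, and these cannot be told apart in any value set across them.

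Genes at these promoters were mostly protein-coding and expressed. RefSeq listed 5344 of the 6521 genes as protein-coding, 332 as long non-coding RNAs, 27 as snRNAs, 21 as snoRNAs and 20 as miRNAs, and 738 symbols had no entry. A mean of at least 1 CPM in the E17.5 Klf5+/- libraries was reached by 5144 of the coding genes (96.3%) and by 28.0% of the long non-coding RNAs. Poly(A) libraries miss most small RNAs, so a low count there does not show a silent promoter.

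Per length, the genes without KLF5 stood slightly below those with KLF5 and far above other coding genes. At E17.5 the median coding gene at a promoter without KLF5 stood between 10.19 and 10.21 CPM per kb of exon in the libraries labelled Klf5-/- and between 10.1 and 10.3 in the Klf5+/- libraries. Coding genes found only at promoters with KLF5 had medians of 12.5 to 12.8 and 12.5 to 13.0 CPM per kb in those groups. Coding genes at neither kind of promoter had medians of 0.0220 to 0.0310 and 0.0142 to 0.0206. In the HFD set the genes without KLF5 had medians of 6.86 to 7.13 CPM per kb in libraries labelled Klf5-/- and 6.79 to 6.89 in Klf5+/- libraries. CPM were scaled within each set, so the 2 sets are only set side by side.

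**Figure D3:**
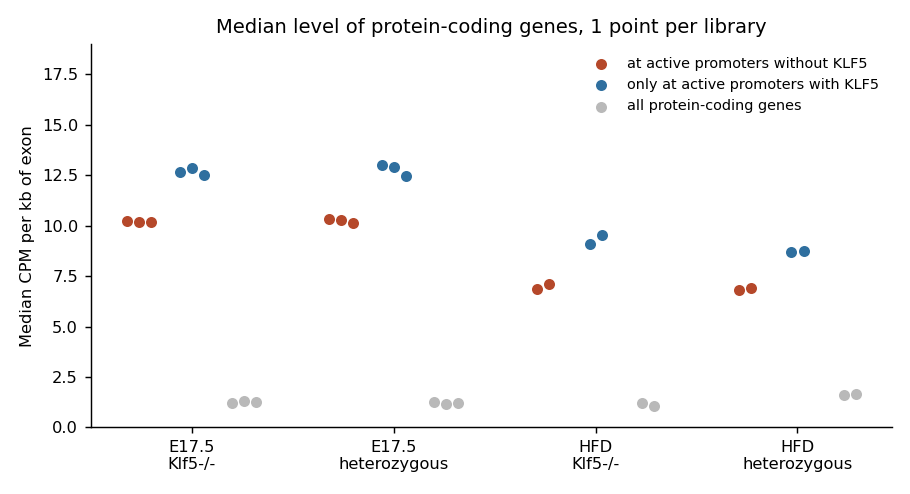
Median level of protein-coding genes in CPM per kb of exon, 1 point for each library, by genotype and set, for genes at active promoters without KLF5, genes only at active promoters with KLF5 and all 19709 coding genes. At E17.5 the points without KLF5 lie near 10.2 CPM per kb in libraries labelled Klf5-/- and in Klf5+/- libraries.

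Within the regions, the level of a gene was at most weakly related to the strength of its marks. Over 4024 regions with a single, coding gene, Spearman's rho between the E17.5 Klf5+/- level per kb and the H3K27ac fold was 0.032. It was −0.050 for the ATAC fold and 0.159 for the H3K27ac width. Median levels in 4 equal groups by width, narrowest first, were 8.93, 10.3, 11.4 and 13.9 CPM per kb. These are correlations across promoters of 1 chromatin sample and the same 3 RNA libraries, which share depth and base composition and are not replicates.

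The strongest acetylated regions included genes that gave almost no poly(A) reads. Dynlt1f, a dynein light chain of a family of near-identical copies whose counts are uncertain, led with an H3K27ac fold of 9.46; its region (chr17:6655153-6655620) lies downstream of the start, inside the gene. Its level was 21.4, 21.2 and 26.7 CPM in E17.5 libraries labelled Klf5-/-, against 17.498, 18.7 and 22.9 CPM in Klf5+/- libraries. Psip1, the chromatin protein LEDGF, followed at 9.30, with 111, 96.8 and 96.5 CPM in libraries labelled Klf5-/- and 93.7, 93.4 and 91.7 CPM in Klf5+/- libraries. Psip1 thus did not overlap between groups, and Dynlt1f did; neither passed the test at E17.5. The next regions were those of Rnu2-10, a U2 snRNA with near-identical copies, at 9.05, Gm6787 on X at 8.98, Gm24497 at 8.97 and E030030I06Rik at 8.80. None of these 4 symbols exceeded 0.27 CPM in any E17.5 library. Frat1, which binds the kinase GSK3 in Wnt signalling, had a fold of 8.72 and 1.65, 1.18 and 1.41 CPM in libraries labelled Klf5-/-, against 2.29, 1.77 and 1.82 CPM in Klf5+/- libraries. Stpg2, a sperm-tail protein gene, had a fold of 8.53 and the highest ATAC fold of these 8, at 16.9, but was at 0.398, 0 and 0 CPM in libraries labelled Klf5-/- and 0, 0.12 and 0 CPM in Klf5+/- libraries. Reads of an antisense or overlapping transcript cannot be told apart from a gene's own, since no source used here gives the strand setting of the counting.

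At 663 regions (11.6%) 2 genes started back to back, against 370 (16.1%) of the promoters with KLF5. Both genes were protein-coding at 358 of the 663, and at 297 both reached 1 CPM, with a median of 117 bases between starts over the coding pairs. The pair with the highest lower partner was Naa50, an N-terminal acetyltransferase, and Atp6v1a, a proton pump subunit, 125 bases apart on chromosome 16. Naa50 stood at 249.7, 227 and 237 CPM in E17.5 libraries labelled Klf5-/- and 203, 222 and 238 CPM in Klf5+/- libraries. Atp6v1a stood at 183, 168 and 206 CPM in libraries labelled Klf5-/- and 189.5, 237 and 206 CPM in Klf5+/- libraries. The groups overlapped for either gene. Other such pairs were Vars, a tRNA synthetase, with D17H6S56E-5, 29 bases apart, Psmc5, a proteasome ATPase, with Ftsj3, 75 bases apart, and Tmem234 with Eif3i, a translation initiation subunit, 20 bases apart.

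Genes of the basic machinery of the cell were found at these regions far more often than genes of the differentiated epidermis. For scale, 16.6% of all 39179 genes, 27.1% of coding genes and 45.9% of coding genes of at least 1 CPM lay at an active promoter without KLF5. Among lists of cell machinery the share was highest for aminoacyl-tRNA synthetases, at 29 of 34 gene entries (85.3%), and for oxidative phosphorylation subunits, at 59 of 78 (75.6%). Vesicle coat and secretion genes followed with 26 of 38 (68.4%), proteasome subunits with 24 of 36, chaperonin and prefoldin subunits with 11 of 17 and cytosolic ribosomal proteins with 52 of 84. Mitochondrial ribosomal proteins had 46 of 76, RNA polymerase II and Mediator subunits 41 of 68, DNA repair genes 36 of 60 and splicing factors 48 of 83. DNA replication and cell cycle genes had 40 of 76, autophagy genes 17 of 32 and translation factors 30 of 60. Other entries lay only at active promoters with KLF5: 26 cytosolic ribosomal proteins, 25 splicing factors, 22 polymerase and Mediator subunits and 16 translation factors. For synthetases and oxidative phosphorylation subunits these were 4 and 10. Over all genes 6521 lay at a promoter without KLF5 and 2686 only at one with it. A list's share thus reflects having an active promoter as well as lacking KLF5. Zinc-finger Zfp genes, the largest family counted, had 175 of 362 (48.3%) without KLF5 and 35 with it only. Of 83 core histone genes 40 lay at these regions and 3 only at promoters with KLF5; most replication-dependent histone mRNAs lack a poly(A) tail, so their RNA was not well measured.

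Lipid genes of the barrier varied by list, cholesterol synthesis lying within the range of the machinery lists and the others below it. Cholesterol synthesis genes had 13 of 24 entries (54.2%) without KLF5 and 9 with it only. Sphingolipid and ceramide genes had 18 of 43 without KLF5 and 11 with it only, among the 18 Sptlc3, a subunit of the enzyme that starts sphingolipid synthesis, the ceramide synthases Cers2 and Cers6, and Sgpp1 and Sgpl1, which degrade sphingosine phosphate. Fatty acid and triglyceride genes had 8 of 27. Acylceramide and very long chain fatty acid genes had 4 of 22, namely Elovl1 and Elovl7, fatty acid elongases, Tecr, which completes elongation, and Abhd5, a lipase co-activator.

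Lists of epidermal genes varied, with few cornified envelope and basal genes in the set. Of 50 suprabasal and cornified envelope genes 3 (6%) lay at a region without KLF5, namely the barrier regulators Grhl1 and Grhl3 and Klk5, a protease that sheds the outer layer. Of the other 47, 5 lay at a promoter with KLF5, and 41 of the 42 at neither had no H3K27ac peak at their start. Basal keratinocyte and hemidesmosome genes had 5 of 28 without KLF5 and 5 with it: Krt14, the basal keratin, Egfr, Fgfr2, Bcam and Cav1. Tight junction and desmosome genes had 12 of 34 (35.3%), epidermal transcription regulators 15 of 49 (30.6%) and AP-1 and immediate early genes 7 of 22 (31.8%). These shares lay between the 27.1% of all coding genes and the 45.9% of coding genes of at least 1 CPM. Among 25 KLF and SP factors 4 lay without KLF5 and 10 at promoters with it only. Krt14 lies 242 bases from a KLF5 peak and stood at 7293, 6669.9 and 7579 CPM in E17.5 libraries labelled Klf5-/- and 7466, 6823 and 6269 CPM in Klf5+/- libraries.

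Few genes that mark other cells of the skin lay at these regions. No marker of endothelial, immune, erythroid, melanocyte, adipocyte, skeletal muscle or Merkel cells lay at one of these regions. The exceptions were 2 of 16 fibroblast markers, Dcn and Fn1, and 2 of 7 Schwann cell markers, among them Mbp. Of the 10 keratinocyte markers only 2 lay there, Cdh1 and Krt14, so these short lists do not tell cell types apart.

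**Figure D4:**
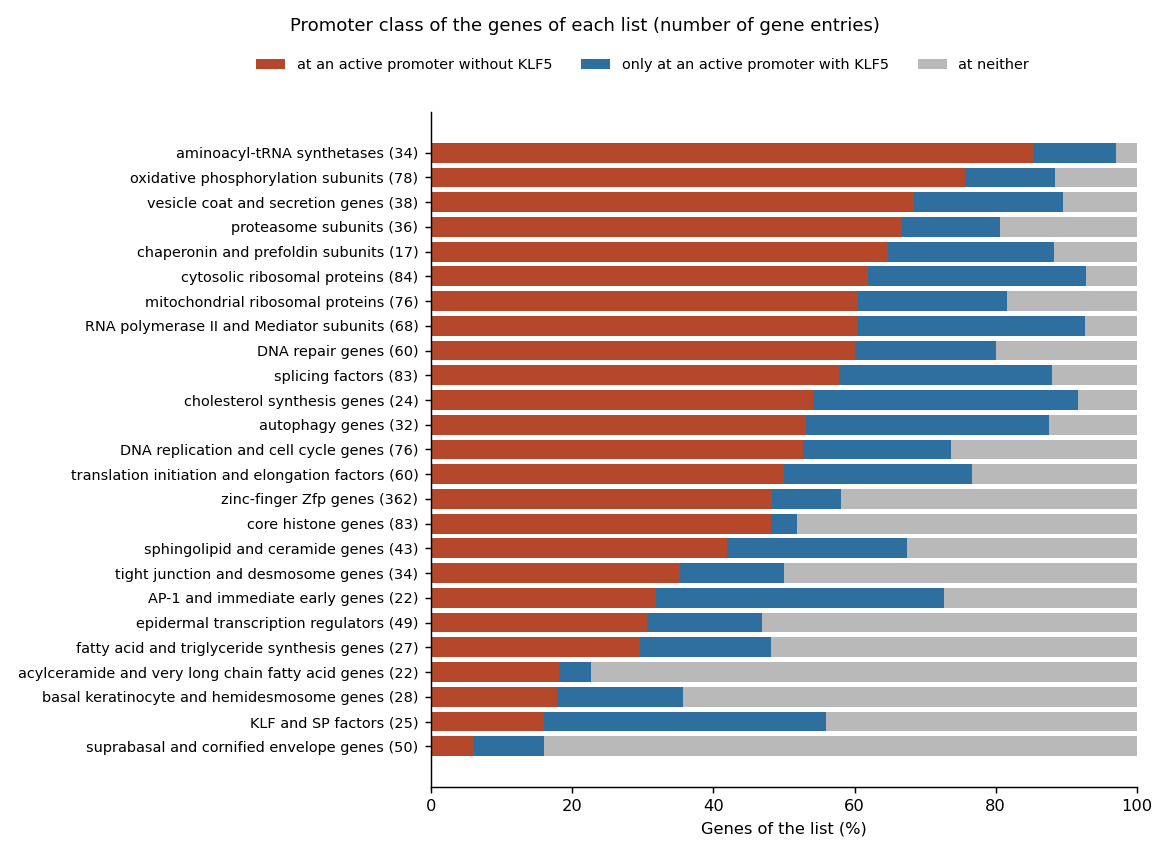
Share of the gene entries of each list of cell machinery, regulators or epidermal genes (percent, number of entries in brackets) that lie at an active promoter without KLF5, only at one with KLF5, or at neither. Aminoacyl-tRNA synthetases have the longest bar without KLF5, at 85.3%, and suprabasal and cornified envelope genes the shortest, at 6%.

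At E17.5, RNA of genes at these promoters hardly differed between libraries labelled Klf5-/- and Klf5+/- libraries. Of the 6521 genes 5852 passed the low-count filter and were tested, and 2 were called (edgeR quasi-likelihood, Benjamini-Hochberg adjusted p under 0.05), both lower. Over all genes tested 0.0861% were called in either direction, 0.0331% higher and 0.053% lower. The median log2 fold change of the 5852 genes was 0.00, and 423 of them (7.23%) had an unadjusted p under 0.05, against 10.0% of all genes tested. The groups did not overlap for 12.9% of the genes at these promoters and for 14.8% of all genes tested. The count was sensitive to the libraries and to the tool: without replicate 3 of the libraries labelled Klf5-/- 112 genes were called (513 over all genes), without replicate 1 of them or replicate 3 of the Klf5+/- libraries 0, and DESeq2 called 93 (461 over all genes), of which 82 were lower.

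Mgst2 (ENSMUSG00000074604, chr3:51660360-51682675, plus strand), a microsomal glutathione transferase, was the stronger of the 2. Its levels were 9.30, 8.05 and 11.7 CPM in libraries labelled Klf5-/-, against 25.6, 32.2 and 25.3 CPM in Klf5+/- libraries. The groups did not overlap, and Mgst2 fell by 1.51 on the log2 scale (SE 0.16, edgeR adjusted p = 0.0204); over 12 alternative fits the adjusted p lay between 6.65e-14 and 0.183, and 9 kept the call. Its region (chr3:51660703-51661052, H3K27ac fold 3.08) lay 176440 bases from the nearest KLF5 peak. Fam25c (ENSMUSG00000043681, chr14:34351881-34355433, minus strand) stood at 52.6, 37.7 and 48.7 CPM in libraries labelled Klf5-/-, against 91.9, 112 and 88.3 CPM in Klf5+/- libraries. These groups did not overlap either, and Fam25c fell by 1.07 (SE 0.14, edgeR adjusted p = 0.0319), a call kept by 5 of 12 alternative fits. Its region (chr14:34355207-34355646, fold 3.44) lay 7611 bases from a KLF5 peak. Both peaks belong to the weakest of the 4 groups by H3K27ac fold, and the CpG-poor RefSeq windows of both genes are printed above. Each of these windows belongs to a start downstream of the one used to choose the region.

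None of the listed functions held either gene. Replication and cell cycle genes had 38 of 40 positive log2 fold changes at E17.5 with a median of 0.15, against a median of 0.01 over all genes tested, but none of the 40 was called by edgeR or DESeq2 and 3 had an unadjusted p under 0.05. Top2a, which untangles DNA, stood at 618, 582 and 509.6 CPM in libraries labelled Klf5-/-, against 499, 493 and 488 CPM in Klf5+/- libraries. The groups did not overlap for Top2a (0.21, SE 0.10, edgeR adjusted p = 0.526). The cytosolic ribosomal proteins had 2 of 52 above 0 with a median of −0.08, which was −0.02 when scaled by library totals. None was called by edgeR or DESeq2, with 1 of 52 at an unadjusted p under 0.05. Reads of these genes are shared with processed pseudogenes, so their counts are less certain. Marker sums at E17.5 were 959 to 1127 CPM for fibroblasts in libraries labelled Klf5-/-, against 773 to 837 CPM in Klf5+/- libraries, without overlap, and 268 to 2738 CPM against 16.2 to 1124 CPM for erythroid cells, with overlap. All 15 fibroblast markers tested had a positive log2 fold change, with a median of 1.03. All 9 erythroid markers did so too, with a median of 1.48, and no marker of either list was called. The keratinocyte sum was lower without overlap, at 54333 to 70061 CPM in libraries labelled Klf5-/-, against 75712 to 94091 CPM in Klf5+/- libraries, though 7 of its 10 fold changes were above 0. Most of that sum was Krt1 and Krt10, suprabasal keratins, although the labels give a sort for integrin alpha 6, a surface marker of basal cells. Krt1 stood at 18037, 15272.5 and 25671 CPM in libraries labelled Klf5-/-, against 37015, 39772 and 31182 CPM in Klf5+/- libraries (−0.87, SE 0.19, edgeR adjusted p = 0.119), so its groups did not overlap and it missed the threshold. The part of these shifts in the E17.5 values was not tested.

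In the HFD set more genes at these promoters differed between genotypes. Of 5869 genes tested 146 (2.49%) were called, 67 higher and 79 lower in libraries labelled Klf5-/-. The background over all 15848 genes tested was 5.5% called, 1.48% higher and 4.02% lower. The groups of 2 did not overlap for 55.1% of the genes at these promoters and 60.1% of all genes. Genes at neither kind of active promoter were called at 9.02%, so most calls in this set lay elsewhere. Scaling by library totals in place of TMM put the median log2 fold change of all genes at −0.23, against −0.01, and turned the split at these promoters into 39 higher and 208 lower, while DESeq2 with its own size factors called 399 higher and 248 lower, with 2906 called over all genes. Without either Klf5+/- library the count was 1 (without replicate 1) or 0 (without replicate 2), and it was 1535 without replicate 1 (5389 over all genes) and 509 without replicate 2 (2681 over all genes) of the libraries labelled Klf5-/-.

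Sums of markers differed between the HFD groups for several cell types, not all in 1 direction. Fibroblast markers summed to 1094 to 5552 CPM in libraries labelled Klf5-/-, against 19444 to 23412 CPM in Klf5+/- libraries, with 0 of 16 log2 fold changes above 0 and 2 called lower. Endothelial markers summed to 14.5 to 73.4 CPM against 384 to 422 CPM, and erythroid markers to 323 to 416 CPM against 899 to 945 CPM. Adipocyte markers summed to 202 to 339 CPM against 865 to 1341 CPM, and immune markers to 115 to 167 CPM against 182 to 186 CPM, although 7 of 13 immune fold changes were above 0 with a median of 0.06. The sums overlapped for skeletal muscle markers, at 104 to 1019 CPM in libraries labelled Klf5-/- and 925 to 3221 CPM in Klf5+/- libraries, and for melanocyte markers, at 168 to 280.0 CPM and 226 to 266 CPM. Of the skeletal muscle markers 0 of 9 fold changes were above 0, with a median of −1.94 and none called. Merkel cell markers were higher, at 23.2 to 27.4 CPM against 16.6 to 23.0 CPM, and so was the sum of Schwann cell markers, at 160.3 to 209.9 CPM against 140.4 to 156 CPM. Single Schwann cell markers mostly went against their sum, with 2 of 7 fold changes above 0, a median of −1.36 and 2 called lower. Keratinocyte markers were higher, at 50298 to 53813 CPM in libraries labelled Klf5-/-, against 23405 to 27960 CPM in Klf5+/- libraries, with 10 of 10 fold changes above 0 and 1 called higher. In such bulk libraries fewer cells of a type and less RNA per cell cannot be told apart, and the part of these shifts in the calls below was not tested.

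The genes that rose most included lipid genes. Sptlc3, a serine palmitoyltransferase subunit, stood at 180.0 and 300.3 CPM in libraries labelled Klf5-/-, against 56.5 and 81.3 CPM in Klf5+/- libraries, and had the largest rise by the naming rule (1.80, SE 0.31, edgeR adjusted p = 0.041). Sult2b1, which sulphates cholesterol, stood at 133 and 181 CPM against 60.0 and 56.0 CPM (1.44, SE 0.21, edgeR adjusted p = 0.0339). Sqle, an early enzyme of the sterol branch of cholesterol synthesis, stood at 98.1 and 150.2 CPM against 44.9 and 49.7 CPM (1.39, SE 0.24, edgeR adjusted p = 0.039). In each of these 3 the groups did not overlap, the libraries labelled Klf5-/- being the higher.

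The rest of the 10 largest rises included structural and signalling genes. Krt80, a keratin, stood at 187 and 179.6 CPM in libraries labelled Klf5-/-, against 61.7 and 51.1 CPM in Klf5+/- libraries (1.70, SE 0.18, edgeR adjusted p = 0.0337). Sfn, the 14-3-3 sigma protein of stratified epithelia, stood at 2154 and 2791 CPM against 833 and 803 CPM (1.60, SE 0.24, adjusted p = 0.0342). Dusp5, a phosphatase of ERK kinases, stood at 33.2 and 42.6 CPM against 10.5 and 11.7 CPM (1.77, SE 0.22, adjusted p = 0.0337). The groups did not overlap for any of them. Plk3, a stress-responsive polo-like kinase (88.0 and 109 CPM against 34.4 and 35.0 CPM), Bmpr1b, a BMP receptor (24.2 and 23.4 against 8.51 and 8.46), Kcnj15, a potassium channel (30.4 and 32.2 against 12.2 and 10.4), and Prrg4, a transmembrane Gla protein (16.6 and 22.0 against 4.95 and 7.89), had log2 fold changes of 1.503, 1.49, 1.47 and 1.59 in that order. Prrg4 had a KLF5 peak 94 bases from its region and Sfn 1763 bases away, whereas Sptlc3 had none within 1172326 bases.

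Genes known from cell types other than keratinocytes fell as well. Rasip1, a Ras-binding protein of vessel endothelium and 1 of the 10 largest falls, stood at 4.80 and 2.05 CPM in libraries labelled Klf5-/-, against 14.5 and 15.2 CPM in Klf5+/- libraries (−2.12, SE 0.43, edgeR adjusted p = 0.048). Fn1, fibronectin, named here as a called fibroblast marker and not for its size of change, stood at 169.9 and 95.5 CPM against 402 and 489.7 CPM (−1.75, SE 0.31, adjusted p = 0.041). No library labelled Klf5-/- reached a Klf5+/- library in these genes. Fn1 is part of the fibroblast marker sum given above, so that sum is not independent of it. At E17.5 Rasip1 stood at 9.67, 10.2 and 7.93 CPM in libraries labelled Klf5-/- and 10.2, 11.2 and 11.2 CPM in Klf5+/- libraries. The endothelial markers there summed to 2.08 to 3.66 CPM in libraries labelled Klf5-/- and 0.885 to 2.11 CPM in Klf5+/- libraries. The source of Rasip1 RNA was not tested in either set.

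Regulators and lipid genes were among the 10 largest falls. Nr1h3, the oxysterol receptor LXR alpha, stood at 1.097 and 1.84 CPM in libraries labelled Klf5-/-, against 8.21 and 8.70 CPM in Klf5+/- libraries (−2.52, SE 0.39, edgeR adjusted p = 0.0358). Cebpd, the transcription factor C/EBP delta, stood at 12.1 and 7.37 CPM against 51.0 and 50.9 CPM (−2.39, SE 0.28, adjusted p = 0.0337). Ppap2b, a lipid phosphate phosphatase, stood at 16.2 and 12.0 CPM against 58.9 and 75.4 CPM (−2.25, SE 0.24, adjusted p = 0.0337). In all 3 the groups were far apart. Gdpd5, a phosphodiesterase of glycerophospholipids (1.99 and 1.42 CPM against 8.44 and 7.50 CPM), and Rgl1, a guanine exchange factor of Ral (7.85 and 4.42 against 26.6 and 29.2), fell by 2.23 and 2.19. The largest falls were of genes at low levels: Zmat1 on X (0.377 and 0.29 CPM against 2.36 and 2.56 CPM), Tbxas1, thromboxane synthase (0.24 and 0.338 against 2.12 and 2.18), and Tc2n (0.377 and 0.386 against 3.04 and 1.96), with log2 fold changes of −2.88, −2.86 and −2.70. All 20 of the largest rises and falls kept their call with DESeq2 and without either library labelled Klf5-/-, and none reversed, but 1 kept it without replicate 1 of the Klf5+/- libraries and 0 without replicate 2.

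**Figure D5:**
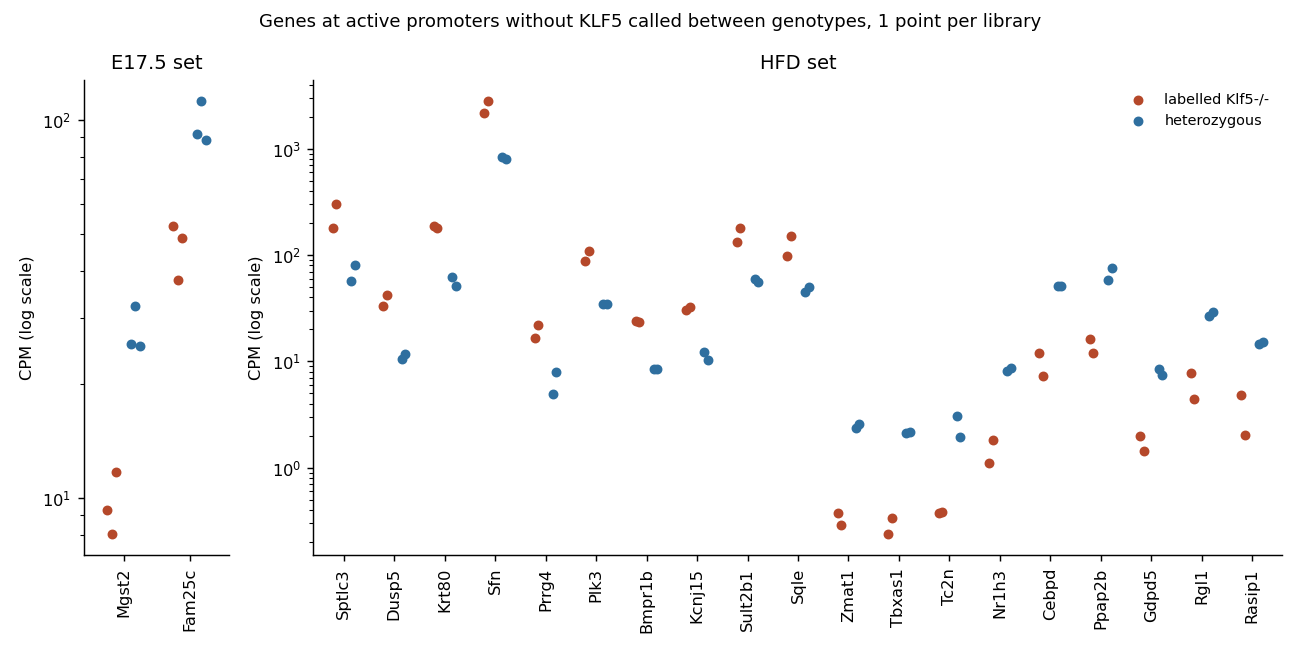
CPM on a log scale, 1 point for each library, of genes at active promoters without KLF5 called between genotypes: the 2 called at E17.5 (left) and the 10 largest rises and 9 of the 10 largest falls of the HFD set (right), libraries labelled Klf5-/- beside Klf5+/- libraries. No group overlaps another for any of these genes; Mgst2 lies between 8.05 and 11.7 CPM in E17.5 libraries labelled Klf5-/-, against 25.3 to 32.2 CPM in Klf5+/- libraries.

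Most of the 146 genes called in the HFD set belonged to none of the function lists, and those that did are given here by list. Of the 13 cholesterol genes at these promoters 3 were higher, among them Sqle and Tm7sf2, a sterol reductase (25.05 and 32.1 CPM in libraries labelled Klf5-/-, against 12.9 and 11.3 CPM in Klf5+/- libraries; 1.24, SE 0.23, edgeR adjusted p = 0.0415), and 12 of 13 genes had a positive fold change with a median of 0.88, against −0.01 over all genes tested. With library totals 2 were called and over the alternative fits between 0 and 11. Of 12 junction genes tested 3 were higher, with all 12 fold changes positive and a median of 0.86, among the 3 Dsp, desmoplakin, at 2563 and 3444 CPM in libraries labelled Klf5-/-, against 1298 and 1098 CPM in Klf5+/- libraries (1.33, SE 0.25, adjusted p = 0.044), and Dsg2, a desmosomal cadherin, at 65.7 and 73.5 CPM against 34.7 and 34.2 CPM (1.01, SE 0.17). With library totals 1 was called, and over the alternative fits between 0 and 9.

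Grhl3, a regulator of epidermal barrier formation, and Klk5 were the 2 called of the 3 cornification genes. Grhl3 stood at 111 and 146 CPM in libraries labelled Klf5-/-, against 45.9 and 59.4 CPM in Klf5+/- libraries (1.29, SE 0.22, edgeR adjusted p = 0.039). Klk5 stood at 396 and 443 CPM against 133 and 199 CPM (1.34, SE 0.24, adjusted p = 0.0415). Of the 17 sphingolipid genes tested Sptlc3 alone was called, and 15 had a positive fold change with a median of 0.43. Among fatty acid genes Acsl5, an acyl-CoA synthetase, rose (245 and 303 CPM against 131 and 151 CPM; 0.96, SE 0.19, adjusted p = 0.0473) and Plin2, a lipid droplet coat protein, fell (34.5 and 36.6 CPM against 61.5 and 80.0 CPM; −0.99, SE 0.19, adjusted p = 0.0449). The genes called higher in these lists moved in the direction of the keratinocyte marker sum given above, and Plin2 moved against it. The part of the shift in that sum in these calls was not tested.

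The genes of the basic machinery showed few calls in the HFD set. Among the aminoacyl-tRNA synthetases Lars2, of the mitochondrial leucine enzyme, rose (165 and 187 CPM in libraries labelled Klf5-/-, against 92.5 and 80.7 CPM in Klf5+/- libraries; 1.02, SE 0.17, edgeR adjusted p = 0.039). Among vesicle genes Cltb, a clathrin light chain, rose (376 and 478 CPM against 193 and 187 CPM; 1.17, SE 0.20, adjusted p = 0.039) and Sec24d, a COPII coat subunit, fell (19.4 and 14.1 CPM against 39.1 and 47.2 CPM; −1.37, SE 0.24, adjusted p = 0.039). Gabarapl2, an autophagosome protein, rose by 0.82 (177 and 188 CPM against 102 and 104 CPM, adjusted p = 0.044), a call lost with library totals. Of 175 Zfp genes Zfp275 alone was called (1.95 and 2.56 CPM against 6.62 and 8.37 CPM; −1.73, SE 0.35, adjusted p = 0.0468). The cytosolic ribosomal proteins had 51 of 52 fold changes above 0 with a median of 0.27, which was 0.04 with library totals; none was called by edgeR or DESeq2, and none had an unadjusted p under 0.05. Replication and cell cycle genes had 6 of 40 above 0 with a median of −0.32; edgeR called none, DESeq2 called 1 lower, and 7 had an unadjusted p under 0.05.

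The genotype effects of the 2 sets were compared directly as a contrast, HFD minus E17.5, in 1 fit of all 10 libraries. Of 5993 genes at these promoters 780 were called (13.0%). The contrast was positive (higher) for 479 of them and negative (lower) for 301, and its sign does not say in which set the effect was larger. The background over 17260 genes was 14.7%, with 7.07% higher and 7.61% lower. With library totals the split was 180 higher and 801 lower, and the median difference of all genes was −0.31, against −0.02. Leaving out 1 library at a time gave counts between 372 and 1517. In the HFD set the count was 1517 without replicate 1 and 446 without replicate 2 of the libraries labelled Klf5-/-, and 385 and 372 without replicate 1 and 2 of the Klf5+/- libraries. In the E17.5 set it was 392 and 464 without replicate 1 and 2 of the libraries labelled Klf5-/-, and 387 without replicate 2 of the Klf5+/- libraries. The sets differ in tissue preparation and sex-linked RNA, and a sort is labelled for E17.5 alone; these cannot be told apart here.

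Both genes that fell at E17.5 differed between the sets. Mgst2 stood at 23.4 and 23.7 CPM in HFD libraries labelled Klf5-/- and 25.2 and 21.8 CPM in HFD Klf5+/- libraries, which overlap, and the difference of effects was 1.53 (SE 0.25, edgeR adjusted p = 0.005), kept in all 14 alternative fits. Fam25c was far higher in the HFD set, at 1657 and 1589 CPM in libraries labelled Klf5-/- and 1024 and 911 CPM in Klf5+/- libraries (0.75, SE 0.21, adjusted p = 0.0825). Its difference was 1.83 (SE 0.23, adjusted p = 0.00267). Sult2b1 also took opposite directions, at 41.2, 34.7 and 55.6 CPM in E17.5 libraries labelled Klf5-/-, against 82.1, 94.8 and 73.8 CPM in Klf5+/- libraries. That E17.5 difference missed the threshold (−0.93, SE 0.17, edgeR adjusted p = 0.0868), and the difference of effects was 2.38 (SE 0.29, adjusted p = 0.00267).

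Cholesterol synthesis had many genes with a more positive effect in the HFD set. Of its 13 genes 10 were called, all higher, and between 4 and 12 over the alternative fits. All 3 cornification genes, 7 of 12 junction genes and 3 of 4 acylceramide genes (Elovl1, Elovl7 and Abhd5) were called higher. Sphingolipid genes had 4 higher, Sptlc3, Sgpp1, Samd8 and Cers6, and 1 lower, Cers2. Cers2 stood at 26.9 and 21.6 CPM in HFD libraries labelled Klf5-/-, against 41.2 and 48.0 CPM in HFD Klf5+/- libraries. At E17.5 it stood at 26.04, 34.6 and 24.5 CPM in libraries labelled Klf5-/-, against 24.7, 19.7 and 22.1 CPM in Klf5+/- libraries, and the difference of effects was −1.22 (SE 0.25, edgeR adjusted p = 0.0108). Replication and cell cycle genes had 9 of 40 lower and none higher, and between 1 and 25 lower over the alternatives.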

How the data were processed

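The members and gene lists were chosen with earlier results of these data known. Raw gene counts, 1 file per RNA library, were deposited by the authors; the submitters' processing notes name STAR 2.6.0b and HTSeq with mm10 (GRCm38). RPKM values deposited beside the HFD counts were not tested; exon lengths for CPM per kb came from those files. Deposited MACS2 peak lists, 1 per sample, give the authors' fold enrichment, a ratio, with −log10 p and −log10 q values, used only to describe or filter peaks; the notes also name Bowtie 1.0.1 and Bowtie2 2.2.3, while no source used here gives the calling threshold or control. Gene starts came from the annotated HFD count files.

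The 2 RNA sets were fitted separately in edgeR 4.0.16 (R 4.3.3; TMM, filterByExpr, robust quasi-likelihood fit, Benjamini-Hochberg adjusted p under 0.05), and the difference of effects in a fit of all 10 libraries. Reads naming no gene were left out. Fits were tested on simulated counts. At the totals given, 3 counts equal 0.0646 to 0.0943 CPM; they cover counting error only. Named were all genes at these promoters called at E17.5, the 10 largest HFD rises and 10 largest falls among called genes with a mean of at least 1 CPM in a group, the 6 largest called differences of effects, the 8 strongest H3K27ac regions, regions at the limits, and of each list the 2 highest genes and any called, of which a part is printed. Genes printed as examples of unlisted findings, such as chromosome Y genes and divergent pairs, were chosen after their values were seen. Alternatives were DESeq2 1.42.0, library totals, other filters, a replicate block, a joint fit, leaving out each library and other definitions of a region. Deviations of same-numbered libraries correlated at 0.026, −0.102 and 0.176 at E17.5 and at 0.185 in both HFD pairs, which with 2 per group are 1 value; no label names a shared source, so numbers were not treated as pairs. HaCaT and IgG samples were not analysed here. Results of a few genes are not reported here, though counts include them.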

Additional observations from a re-analysis of the deposited data

Results flagged for a closer look

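Genotype effects that differed between the HFD set and E17.5, tested as HFD minus E17.5 in 1 edgeR fit of all 10 libraries, are listed here with no explanation; 780 genes at active promoters without KLF5 were called in this contrast. Mgst2 had a difference of 1.53 and Fam25c of 1.83, both lower at E17.5 in the libraries labelled Klf5-/-.

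The 6 largest differences were all negative. Adamtsl4, an ADAMTS-like matrix protein, had 2.67 and 0.942 CPM in HFD libraries labelled Klf5-/-, against 7.54 and 11.5 CPM in HFD Klf5+/- libraries. At E17.5 it had 1.85, 3.85 and 0.614 CPM in libraries labelled Klf5-/-, against 0.367, 0.451 and 0.196 CPM in Klf5+/- libraries, and the difference was −5.04 (SE 1.00, edgeR adjusted p = 0.0109). Tbxas1, thromboxane synthase, was at 0.142, 0.368 and 0.587 CPM in E17.5 libraries labelled Klf5-/-, against 0.151, 0.0601 and 0.0491 CPM in Klf5+/- libraries, some of them under 3 counts, with a difference of −4.85 (SE 0.98, adjusted p = 0.0103). Gdpd5 had 2.33, 2.65 and 2.62 CPM in E17.5 libraries labelled Klf5-/-, against 1.32, 1.05 and 1.84 CPM in Klf5+/- libraries, with a difference of −3.07 (SE 0.45, adjusted p = 0.00342). These 3 kept their call in all 14 alternative fits.

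The other 3 rest on few reads and kept their call in 3 or 4 fits. Ch25h, cholesterol 25-hydroxylase, had 0 and 0 counts in HFD libraries labelled Klf5-/-, against 3 and 5 counts in HFD Klf5+/- libraries, and its fitted difference of −6.13 depends on the prior count. Gm10699 had 0 and 0 counts against 4 and 4 counts in the same groups, with a fitted difference of −7.68, and Gm9929 had 1 and 2 counts against 12 and 5 counts, with a fitted difference of −3.31. Fitted values of this kind are no bound on a fold.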

How the results depend on the processing

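The number of called genes depended on the fit more than on how a region was defined. The counts here are of genes at these promoters alone, so they do not set these genes apart from others. In the main fits the called shares at these promoters were 0.0342% at E17.5, 2.49% in the HFD set and 13.0% for the difference. Over all genes tested the shares were 0.0861%, 5.5% and 14.7% in that order. At E17.5 (2 called) DESeq2 called 93, no low-count filter 50, a replicate block 7, a minimum of 1 CPM 1 and the fit of all 10 libraries 1, and leaving out 1 library gave 0 to 112. In the HFD set (146 called) DESeq2 called 647, library totals 247, no low-count filter 516, the replicate block 339 and the fit of all 10 libraries 1130, and leaving out 1 library gave 0 to 1535. For the difference of effects (780 called) leaving out 1 library gave 372 to 1517, the replicate block 801 and library totals 981. Fits without 1 library that leave a group with 1 sample assume that it varies like the others. The other definitions of a region left 2 calls at E17.5 and between 112 and 163 in the HFD set. The median E17.5 Klf5+/- level of 10.2 CPM per kb was 10.4 with named genes only, 10.1 without KLF5 within 1 kb or with a 2 kb window, and 11.0 with −log10 q of at least 5. Of 306 values of single named genes under an alternative, 226 kept their call, 80 lost it and 0 reversed. The numbers were not taken as pairs, so calls under the block show no weaker or stronger effect. The cause of these changes was not tested. Groups of 2 and 3 libraries, 1 chromatin sample per assay and depth all limit the precision, and their parts were not compared.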
